A study of Rattus norvegicus with 89 samples.

Results

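The 8 genes that principal cells of the renal collecting duct use to move water and sodium, and to respond to vasopressin and aldosterone, were followed in rat kidneys: Aqp2, Aqp3, Aqp4, Avpr2, Scnn1a, Scnn1b, Scnn1g and Hsd11b2. They were chosen by gene symbol. They were represented by 13 of the 31099 probe sets on the arrays, and all 8 were among the 11420 genes tested, of 14217 genes named by 1 symbol.

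Principal cells fine-tune the urine. Vasopressin binds its V2 receptor (Avpr2) on their basolateral side, cAMP then carries aquaporin-2 (Aqp2) to the apical membrane, and water leaves the cell through aquaporin-3 (Aqp3) and aquaporin-4 (Aqp4). The epithelial sodium channel is built of an alpha, a beta and a gamma subunit (Scnn1a, Scnn1b and Scnn1g) and is driven by aldosterone through the mineralocorticoid receptor, while the enzyme encoded by Hsd11b2 inactivates glucocorticoids that would otherwise occupy that receptor. Loss of AQP2 or AVPR2 function in people causes nephrogenic diabetes insipidus, and loss of HSD11B2 function causes apparent mineralocorticoid excess.

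Kidney RNA of 89 Sprague-Dawley Crl:CD(SD) rats was hybridised to 1-colour Affymetrix arrays, 1 array per rat. The rats, 44 males and 45 females, were between 7 and 8 weeks old when the experiment began, and the apical parts of both kidneys of a rat were homogenised together. They received gentamicin (Gentamycin in the labels) or tobramycin, which are aminoglycoside antibiotics, cisplatin, a platinum anticancer drug, cadmium, a heavy metal, doxorubicin, an anthracycline, valproic acid, an antiepileptic drug, or saline, daily for 1 or 5 days. A further group was naive, without treatment. The sources used here do not state the doses. Of the 15 groups, saline at day 1 had 7 rats (3 males, 4 females), saline at day 5 had 5 (3 males, 2 females), doxorubicin at day 5 had 5 (2 males, 3 females), and each other group had 3 males and 3 females. The piece sampled held many cell types, and its share of each kidney zone was not measured. Fewer cells of a type, less RNA per cell and uneven sampling of a zone therefore cannot be told apart. The label on treatment was missing for rats 1M4 and 1F104, and for 2F114, 1M2 and 5F137 it differed from the title. Groups of all 5 were taken from the titles.

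The promoters are shown for the receptor, for its channel Aqp2 and for the neighbouring Scnn1b and Scnn1g. Levels of the receptor and of these subunits moved together between rats of a group. Most pairs of the set did so as well, and Aqp2 with Scnn1g did not pass, so this does not single out the genes shown. A link between promoters and levels was not tested. Each window runs 5′ to 3′ over 300 bases, with 250 before and 50 after the annotated start, as RefSeq gives it for the GRCr8 assembly. Capitals mark short motifs found on either strand.
Aqp2, chr7:132590036-132590335, plus strand: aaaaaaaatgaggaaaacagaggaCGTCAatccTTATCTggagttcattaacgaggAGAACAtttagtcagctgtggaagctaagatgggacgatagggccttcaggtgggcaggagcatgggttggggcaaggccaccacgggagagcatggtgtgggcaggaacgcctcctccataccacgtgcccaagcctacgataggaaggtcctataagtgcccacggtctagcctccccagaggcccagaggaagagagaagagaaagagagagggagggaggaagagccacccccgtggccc
Avpr2, chrX:156784889-156785188, plus strand: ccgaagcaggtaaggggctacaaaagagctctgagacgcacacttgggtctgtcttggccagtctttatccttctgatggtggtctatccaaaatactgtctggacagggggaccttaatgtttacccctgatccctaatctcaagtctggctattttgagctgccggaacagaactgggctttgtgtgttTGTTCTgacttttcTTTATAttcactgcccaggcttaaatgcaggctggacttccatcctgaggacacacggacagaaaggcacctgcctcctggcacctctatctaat
Scnn1b, chr1:185861126-185861425, plus strand: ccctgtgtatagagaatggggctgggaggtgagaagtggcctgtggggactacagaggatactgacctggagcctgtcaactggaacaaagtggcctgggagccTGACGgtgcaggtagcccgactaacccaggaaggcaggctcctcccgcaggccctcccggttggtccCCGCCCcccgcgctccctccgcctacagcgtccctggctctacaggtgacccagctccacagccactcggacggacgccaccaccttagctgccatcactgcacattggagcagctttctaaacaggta
Scnn1g, chr1:185735975-185736274, plus strand: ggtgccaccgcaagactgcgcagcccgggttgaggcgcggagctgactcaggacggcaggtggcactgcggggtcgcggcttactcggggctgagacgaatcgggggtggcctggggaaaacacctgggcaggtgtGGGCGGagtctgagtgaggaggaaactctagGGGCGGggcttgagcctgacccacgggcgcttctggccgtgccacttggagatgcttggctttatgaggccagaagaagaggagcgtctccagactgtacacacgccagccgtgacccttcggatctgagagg

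In the Aqp2 window the capitals are, in order, the cAMP response element half-site TGACG on the minus strand at -226, the GATA motif AGATAA on the minus strand at -217 and the steroid receptor half-site TGTTCT on the minus strand at -194. In the Avpr2 window they are TGTTCT on the plus strand at -59 and the TATA box TATAAA on the minus strand at -45. The Scnn1b window holds TGACG on the plus strand at -146 and the GC box GGGCGG on the minus strand at -79, and the Scnn1g window holds GGGCGG on the plus strand at -114 and at -83. No 2 of the marked motifs overlap. These are short words that many promoters carry: of 33469 RefSeq promoters of the same length, 21.2% held TGACG, 11.6% AGATAA, 20.7% TGTTCT, 33.1% GGGCGG and 14.2% TATAAA. The tonicity element core TGGAAA, in 22.7% of promoters, was found in 1 gene of the set, Aqp4. A match is a description of the letters and not of a site in use, and the absence of a match says only that these letters are not in this window. Of the 8 genes, 6 had an entry in the promoter table, and the windows of Aqp3, at chr5:61040634-61040933 on the minus strand, and of Aqp4 are not printed.

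None of the 8 genes differed from saline past an adjusted p of 0.05 under any of the 6 compounds at either day. Of 96 changes (8 genes in 12 comparisons), 0 passed limma's test after Benjamini-Hochberg adjustment over the 11420 genes, and 8 had an unadjusted p under 0.05. The changes lay between -0.25 and 0.67 on the log2 scale. The smallest unadjusted p was 0.0112 and the smallest adjusted p was 0.363. The data bound how large a change could be: 94 of the 96 intervals at 95% confidence lay wholly within a 2-fold change either way, 74 lay within 1.5-fold, and the median interval reached 0.304 log2 units to either side.

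Calls were rare over all genes too. At day 1 the share of tested genes called in either direction was 0.123% for gentamicin, 0.517% for tobramycin, 0% for cisplatin, 0.0525% for cadmium, 0.0525% for doxorubicin and 0.228% for valproic acid. At day 5 it was 0.0175% for gentamicin, 0% for tobramycin, 0.412% for cisplatin, 0.0613% for cadmium, 0.377% for doxorubicin and 0.149% for valproic acid. For cisplatin at day 1 and tobramycin at day 5, limma called 0 genes, and 515 and 906 genes had an unadjusted p under 0.05. With shares this low, 0 of 8 members called lies near the background in each comparison. The 6 comparisons of a day share their saline rats, so their values for 1 gene are not independent of each other.

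**Figure D1:**
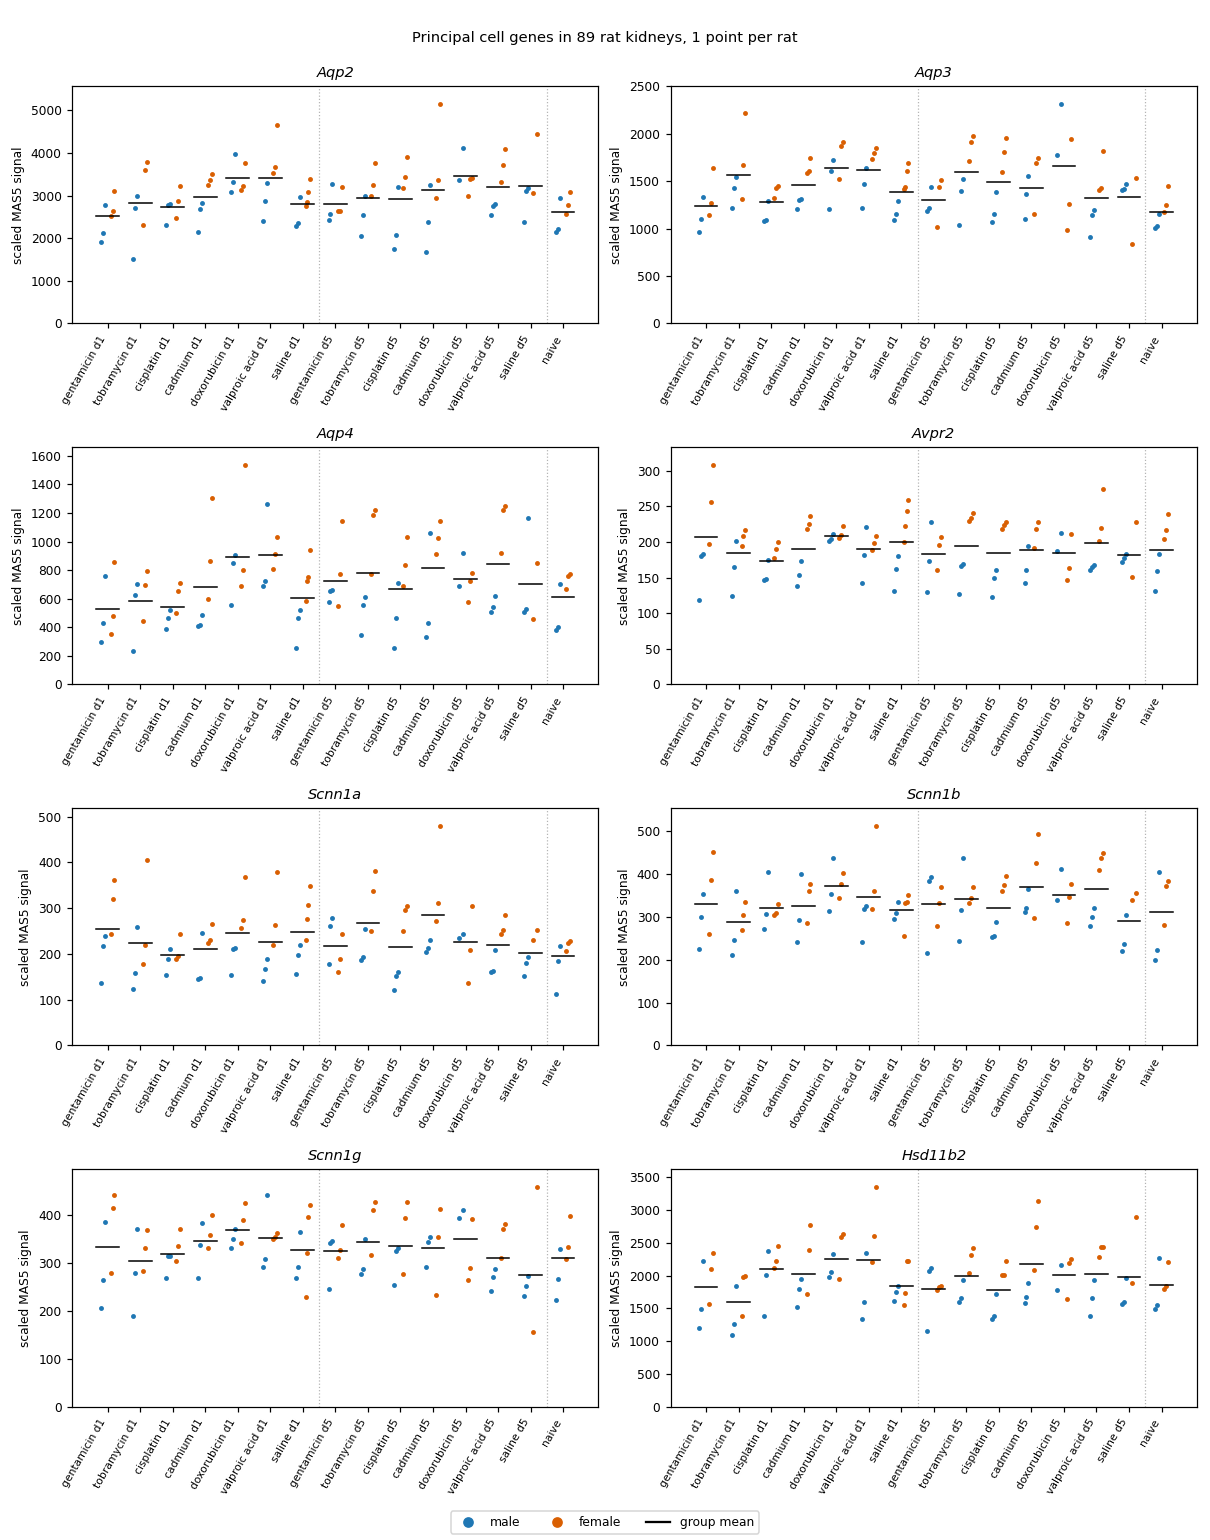
Scaled MAS5 signal (vertical axis, linear, from 0) of the 8 genes in each of 89 rats, by group (horizontal axis); points are rats, blue for males and orange for females, and bars are group means. Rats of a group often spread over a wider range than the group means do, though not in every group, as for Avpr2 with doxorubicin at day 1. Females mostly lie above males.

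Aqp2, the vasopressin-regulated apical water channel, did not pass the test against saline in any of the 12 comparisons. Scaled signal is the deposited MAS5 intensity after each array was brought to a common trimmed mean, and it ranks groups within a gene, not genes against each other. The mean scaled signal of Aqp2 at day 1 was 2514 with gentamicin, 2818 with tobramycin, 2741 with cisplatin, 2962 with cadmium, 3415 with doxorubicin, 3406 with valproic acid and 2813 with saline. At day 5 it was 2794 with gentamicin, 2933 with tobramycin, 2921 with cisplatin, 3131 with cadmium, 3452 with doxorubicin, 3204 with valproic acid and 3237 with saline, and in naive rats it was 2626. The SD within a group lay between 318 and 1173. Ordered by mean log2 level with sex held equal, groups ran from doxorubicin at day 1 (top) to gentamicin at day 1 (bottom). The span was 1.37-fold, and 0 of the 14 gaps between neighbours exceeded the SD between rats of 0.26 log2 units. Neighbouring gaps among 15 ordered groups are small in any case, and the SD is that of single rats. The count of such gaps, here and for the genes below, thus does not test whether groups differ.

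In doxorubicin-treated rats at day 1, Aqp2 ran from 3095 through a median of 3267 to 3975, against 2297 through a median of 2843 to 3379 in saline rats. All 6 treated rats lay above the saline mean of their sex, though the groups overlapped. Such counts, here and for the genes below, set all rats of a sex against the same saline mean and test nothing. Small changes reached 6 of 6 too, such as Aqp3 with cadmium at day 1, at 0.04 to 0.18 log2 units above that mean. No such count is given over all genes. The change was 0.31 log2 units (95% interval 0.02 to 0.59), with an unadjusted p of 0.0342 and an adjusted p of 0.577. At day 5, the changes of Aqp2 were -0.22 for gentamicin, -0.17 for tobramycin, -0.20 for cisplatin, -0.13 for cadmium, 0.05 for doxorubicin and -0.04 for valproic acid. Saline rats at day 5 had 2386, 3049.7, 3118, 3174 and 4457, the last in the female 1F106, so 1 of the 5 controls lay well above the others.

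Aqp3, a basolateral exit path for water and glycerol, averaged 1241 with gentamicin, 1566 with tobramycin, 1277 with cisplatin, 1459.9 with cadmium, 1641 with doxorubicin, 1618 with valproic acid and 1384 with saline at day 1. At day 5 its means were 1302 with gentamicin, 1593 with tobramycin, 1496 with cisplatin, 1434 with cadmium, 1658 with doxorubicin, 1318 with valproic acid and 1335 with saline, with 1178 in naive rats, and the SD within a group lay between 159.3 and 535. Its groups spanned 1.38-fold between doxorubicin at day 1 and naive rats, and 0 of 14 neighbouring gaps exceeded the SD between rats of 0.26 log2 units. All 12 changes against saline had intervals within 2-fold. They lay between -0.14 for gentamicin at day 1 and 0.26 for doxorubicin at day 1. Saline rats at day 5 had 839.9, 1409, 1423, 1471 and 1532: the female 1F106 was the low one, and the other 4 lay close together. In doxorubicin-treated rats at day 5, Aqp3 ranged more widely, with 980.4, 1265, 1782, 1944 and 2318, and the change was 0.23.

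Aqp4, the second basolateral water channel, varied most between rats of a group, and it had the largest changes of the set. Its day 1 means were 529 with gentamicin, 582 with tobramycin, 539 with cisplatin, 678 with cadmium, 889 with doxorubicin, 906 with valproic acid and 606 with saline. The day 5 means were 725 with gentamicin, 783 with tobramycin, 665 with cisplatin, 817 with cadmium, 736 with doxorubicin, 844 with valproic acid and 701 with saline, and naive rats had 614, with an SD between 118.9 and 352. The groups spanned 1.78-fold between valproic acid at day 1 and gentamicin at day 1. That span was the widest of the 8 genes, and 0 of 14 gaps exceeded the SD between rats of 0.47 log2 units.

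In rats given valproic acid for 1 day, Aqp4 had a lowest signal of 691, a median of 861 and a highest of 1266. Saline rats at day 1 had a lowest signal of 258, a median of 587 and a highest of 941. Every treated rat lay above the saline mean of its sex, and the 2 groups overlapped. The change was 0.67 log2 units (SE 0.26, 95% interval 0.16 to 1.18), a 1.59-fold higher level that did not pass (unadjusted p 0.0112, adjusted p 0.363, and adjusted p 0.255 to 0.826 over the alternatives run). Doxorubicin for 1 day gave 554 through a median of 825 to 1537 and a change of 0.60 (adjusted p 0.535). These were the only 2 of the 96 intervals that reached beyond 2-fold, at 1.18 and 1.11. A second Aqp4 probe set, 1368981_at, gave 0.48 for valproic acid and 0.50 for doxorubicin. Another, 1387397_at, lay below the limit of 33.1, the 40th percentile of scaled signal over all probe sets and arrays, in 80 of 89 rats. By day 5 the changes of Aqp4 were 0.21 for valproic acid and 0.04 for doxorubicin.

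Avpr2, the vasopressin receptor, was the steadiest gene of the set under treatment. Its means at day 1 were 207 with gentamicin, 184.7 with tobramycin, 172.6 with cisplatin, 190.6 with cadmium, 209 with doxorubicin, 189.9 with valproic acid and 199.6 with saline. At day 5 they were 182.6 with gentamicin, 194.2 with tobramycin, 183.8 with cisplatin, 189.0 with cadmium, 183.9 with doxorubicin, 197.8 with valproic acid and 182.1 with saline, naive rats had 188.7, and the SD within a group lay between 7.62 and 66. The groups spanned 1.20-fold, from doxorubicin at day 1 down to cisplatin at day 1, and 0 of 14 gaps exceeded the SD between rats of 0.21 log2 units. Changes against saline lay between -0.15 for cisplatin at day 1 and 0.11 for doxorubicin at day 1, and the 12 intervals ran at most from -0.38 to 0.34. All 12 intervals of the receptor gene thus lay within a 1.5-fold change either way.

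The 6 rats given doxorubicin for 1 day were alike in Avpr2, with a lowest signal of 201, a median of 208 and a highest of 222. The saline rats of that day ran from 131.7 through a median of 200.5 to 258. The SD was 7.62 in the treated rats, against 45.2 in saline rats, and the treated range lay inside the saline range.

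Scnn1a, the pore-forming alpha subunit whose gene aldosterone induces in the kidney, averaged 254 with gentamicin, 225 with tobramycin, 197.2 with cisplatin, 209.9 with cadmium, 246 with doxorubicin, 227 with valproic acid and 248 with saline at day 1. At day 5 it averaged 218 with gentamicin, 267 with tobramycin, 215 with cisplatin, 285 with cadmium, 225 with doxorubicin, 219 with valproic acid and 202 with saline, with 195.4 in naive rats and an SD between 29.5 and 103.5. The groups spanned 1.40-fold between cadmium at day 5 and naive rats, and 0 of 14 gaps exceeded the SD between rats of 0.32 log2 units. Rats given cadmium for 5 days had 203 at the lowest, 251 at the median and 479.8 at the highest. Saline rats of that day had 150.9, 179.9, 193.9, 231 and 253. All 6 cadmium-treated rats exceeded the saline mean of their sex, but the groups overlapped, and the change of 0.38 (95% interval 0.01 to 0.76) had an adjusted p of 0.798. Tobramycin for 5 days gave 0.31, again with 6 of 6 rats above the saline mean of their sex.

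Scnn1b, the beta subunit, averaged 329.9 with gentamicin, 288 with tobramycin, 321 with cisplatin, 327 with cadmium, 372 with doxorubicin, 346 with valproic acid and 317 with saline at day 1. Its day 5 means were 329 with gentamicin, 341 with tobramycin, 322 with cisplatin, 369.9 with cadmium, 353 with doxorubicin, 367 with valproic acid and 292 with saline, and its naive mean was 311, with an SD between 32.7 and 90.5. The groups spanned 1.29-fold, and 0 of 14 gaps exceeded the SD between rats of 0.26 log2 units. Cadmium-treated rats at day 5 had a lowest signal of 299, a median of 344 and a highest of 495. Saline rats had 221, 238, 305, 339 and 356 at that day. The change was 0.31 (95% interval 0.00 to 0.61, adjusted p 0.810). The changes of Scnn1b were above 0 in 11 of the 12 comparisons, the exception being tobramycin at day 1 with -0.13, and the saline groups that they share stood 12th and 14th of 15 in the order of levels.

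Scnn1g, the gamma subunit, averaged 333 with gentamicin, 304 with tobramycin, 318 with cisplatin, 347 with cadmium, 369 with doxorubicin, 352 with valproic acid and 328 with saline at day 1. At day 5 its means were 325 with gentamicin, 345 with tobramycin, 335 with cisplatin, 332 with cadmium, 349.9 with doxorubicin, 311 with valproic acid and 274 with saline, naive rats had 310.1, and the SD within a group lay between 34.5 and 112.7. Saline at day 5 was the lowest of the 15 groups, and doxorubicin at day 1, 1.38-fold higher, was the top one. All 6 changes at day 5 were therefore above 0: 0.29 for gentamicin, 0.36 for tobramycin, 0.32 for cisplatin, 0.31 for cadmium, 0.36 for doxorubicin and 0.22 for valproic acid. None passed, and adjusted p was 0.575 for tobramycin and 0.459 for doxorubicin.

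The saline mean of Scnn1g at day 5 depended on its 2 females, which lay at opposite ends of the group. Doxorubicin-treated rats at day 5 had 263.9, 289, 392, 394 and 411, against 155.03, 232, 253, 272 and 459.5 in saline rats. The lowest of these, 155.03, and the highest, 459.5, were the 2 females, 1F106 and 1F105. The 3 saline males had 232, 253 and 272, against a median of 300.5 in all 44 males. Rat 1F106 also had the highest ratio of the 3′ to the 5′ GAPDH control probe sets, a measure of RNA integrity, at 1.58 log2 units against a median of 0.36 over all rats. Without it, the 6 changes of Scnn1g at day 5 ranged from 0.01 to 0.16, and without 1F105 they ranged from 0.40 to 0.54. The part of RNA quality in this difference was not tested. The second Scnn1g probe set, 1387986_at, gave 0.30 for tobramycin and 0.42 for doxorubicin at day 5.

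Hsd11b2, which shields the mineralocorticoid receptor, averaged 1825 with gentamicin, 1591 with tobramycin, 2093 with cisplatin, 2024 with cadmium, 2256 with doxorubicin, 2243 with valproic acid and 1847 with saline at day 1. Its means at day 5 were 1801 with gentamicin, 1991 with tobramycin, 1778 with cisplatin, 2182 with cadmium, 2007 with doxorubicin, 2022 with valproic acid and 1979 with saline, and naive rats had 1859, with an SD between 275 and 722. Groups spanned 1.44-fold between doxorubicin at day 1 and tobramycin at day 1, and 0 of 14 gaps exceeded the SD between rats of 0.26 log2 units. With doxorubicin at day 1 it ran from 1952 through a median of 2192 to 2633, against 1544 through a median of 1743 to 2227 with saline. Treated rats were above the saline mean of their sex in 6 of 6 cases, with overlap, and the change was 0.31 (95% interval 0.03 to 0.60, adjusted p 0.561). The changes at the other end were -0.21 for tobramycin at day 1, -0.18 for cisplatin at day 5 and -0.16 for gentamicin at day 5.

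**Figure D2:**
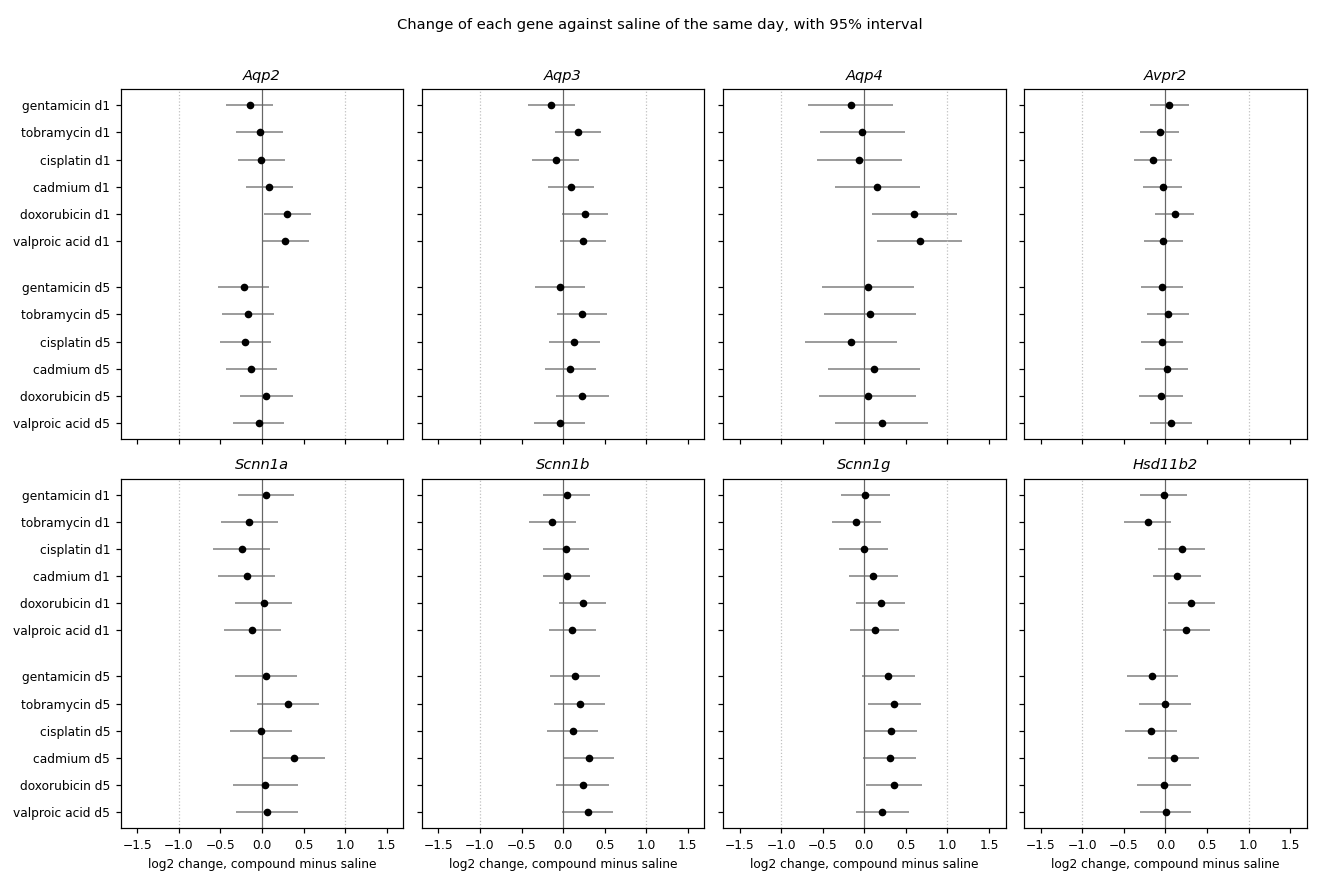
Change of each gene (horizontal axis, log2, compound minus saline of the same day) with its 95% interval, for 6 compounds at day 1 and day 5 (vertical axis). Of the 96 intervals, 88 include 0, and the 2 that reach beyond 2-fold (dotted lines at -1 and 1) belong to Aqp4 with doxorubicin and valproic acid at day 1.

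Of the 12 comparisons with saline, doxorubicin at day 1 was the only 1 in which all 8 changes were above 0. The 8 genes co-vary between rats, so a shared direction is not 8 separate results. The changes were 0.31 for Aqp2, 0.26 for Aqp3, 0.60 for Aqp4, 0.11 for Avpr2, 0.02 for Scnn1a, 0.24 for Scnn1b, 0.20 for Scnn1g and 0.31 for Hsd11b2. Their median was 0.25, against 0.02 over all genes tested. Without scaling of the arrays the median of all genes moved to -0.30, and 7 of the 8 then lay below 0, Aqp2 at -0.04, but 7 of the 8 lay above that median, the exception being Scnn1a at -0.31. Scnn1a also lay at -0.00 after quantile normalization. In the same comparison the other principal cell markers had a median of 0.23 with 10 of 11 above 0, and the proximal tubule markers had -0.21 with 4 of 10 above 0. The intercalated cell markers had a median of 0.15 and the endothelial markers 0.09. The summed signal of the 10 proximal markers ran from 25221 to 28071 in doxorubicin-treated rats and from 23708 to 31679 in saline rats. Their part in the result was not tested.

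Few genes of the hormone pathways around these channels were called under treatment. Of 16 genes of vasopressin and cAMP signalling, 0 to 1 passed in each of the 12 comparisons. The 1 call was Ptger3, a prostaglandin E2 receptor that opposes cAMP formation, which fell by 0.83 log2 units with valproic acid at day 1 (adjusted p 0.0228). Of 15 genes of aldosterone action and sodium channel control, such as the receptor Nr3c2, the kinase Sgk1 and the ubiquitin ligase Nedd4l, limma called 0 in 12 comparisons, and 16 of 180 values had an unadjusted p under 0.05. Of 11 further principal cell markers it also called 0, with 11 values under that p. The injury markers Havcr1 (kidney injury molecule 1) and Tnfrsf12a rose with cisplatin at day 5, by 2.89 (adjusted p 0.0073) and 1.25 (adjusted p 0.0104), and in that comparison the 8 members had a median of -0.03, against 0.00 over all genes.

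Length of dosing was compared as the effect at day 5 minus the effect at day 1, for each compound. None of the 48 differences passed limma's test, and 2 had an unadjusted p under 0.05. Scnn1a differed by 0.57 under cadmium (p 0.0281, adjusted p 1.00) and Scnn1g by 0.46 under tobramycin (p 0.0393, adjusted p 0.942). The share of all genes called was 0% for gentamicin, tobramycin, cadmium and valproic acid, 0.00876% for cisplatin and 0.0525% for doxorubicin. At an unadjusted p under 0.05 there were 274 genes for gentamicin, 554 for tobramycin, 371 for cadmium and 640.0 for valproic acid.

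Saline itself, as against no treatment, moved none of the 8 genes past the test at either day. Aqp2 was 0.32 log2 units higher in saline rats at day 5 than in naive rats (95% interval 0.01 to 0.62, unadjusted p 0.0445, adjusted p 0.534), and the other 15 values had an unadjusted p above 0.05. Over all genes 0% were called at day 1 and 0% at day 5, with 772 and 1062 genes at an unadjusted p under 0.05.

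Gentamicin and tobramycin, both aminoglycosides, were compared with each other at the same day, which gave 16 pairs of values for the 8 genes. None passed. Aqp3 had the largest difference relative to its error: rats given gentamicin for 1 day averaged 1241 ± 233, against 1566 ± 359 in rats given tobramycin (SD, n = 6 each), a difference of -0.32 (95% interval -0.61 to -0.03, unadjusted p 0.0290, adjusted p 0.697). At day 5 the means were 1302 ± 189 with gentamicin and 1593 ± 352 with tobramycin, a difference of -0.27 (95% interval -0.56 to 0.02). Without scaling of the arrays these 2 differences were 0.06 and 0.02, where the median of all genes moved to 0.34 and 0.26. For the other 7 genes the intervals lay within -0.67 to 0.56. At day 5 all 8 genes were lower with gentamicin than with tobramycin, with a median of -0.072 against -0.0015 over all genes. The share of genes called between the aminoglycosides was 0.0263% at day 1 and 0% at day 5, where 601 genes had an unadjusted p under 0.05. The doses of both drugs are not stated in the sources used here.

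Sex was compared over all 89 rats. All 8 were lower in males than in females: Aqp4 by 0.54, Scnn1a by 0.45, Hsd11b2 by 0.33, Avpr2 by 0.33, Aqp2 by 0.31, Aqp3 by 0.24, Scnn1b by 0.20 and Scnn1g by 0.17 log2 units. All passed limma's test on the 89 arrays with group as a term, with adjusted p from 1.1e-09 for Avpr2 to 0.00703 for Scnn1g. Sex moved much of the kidney's transcriptome: 40.4% of tested genes were called lower in males and 23.9% higher. Read against 40.4%, 8 of 8 is a shared direction in a setting in which many genes are called. The median over the 8 genes was -0.32, against -0.05 over all genes.

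Aqp2 had a lowest signal of 1514, a median of 2723 and a highest of 4114 in 44 males, against 2311, 3225 and 5157 in 45 females. Of the males, 37 lay below the female median and 12 below the lowest female. Aqp3 ran from 907 through 1256 to 2318 in males and from 839.9 through 1585 to 2218 in females, with 39 males below the female median. For Aqp4 the lowest, median and highest were 235, 537 and 1266 in males and 351, 781 and 1537 in females. The sexes overlapped for all 3 water channels, and the bulk of the males lay in the lower part of the female range.

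Avpr2, whose gene lies on the X chromosome, had the smallest adjusted p of the 8 genes between the sexes and the most males below the female median. Males ran from 118.6 through a median of 166.6 to 228, and females from 145.9 through 216 to 308. Of the 44 males, 42 lay below the female median, and 11 of 45 females lay above the highest male, against 15 for Scnn1a and 13 for Hsd11b2. Among the sodium channel subunits, Scnn1a was 112.9, 189.6 and 278 (lowest, median, highest) in males and 136.0, 251 and 479.8 in females, with 40 males below the female median. Scnn1b was 201, 308 and 439 in males and 256, 352 and 513 in females. Scnn1g, with the smallest difference, was 189.7, 300.5 and 442 in males and 155.03, 356 and 459.5 in females. Hsd11b2 ran from 1091 through 1691 to 2379 in males and from 1379 through 2201 to 3354 in females, with 39 males below the female median.

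The difference held group by group. The male mean of log2 values was below the female mean in 15 of 15 groups for Hsd11b2, in 14 for Avpr2 and in 13 for each of the other 6 genes. Doxorubicin at day 5, with 2 males, was the group in which 7 of the 8 genes were higher in males, Aqp3 by 0.59, Scnn1g by 0.36 and Aqp4 by 0.20. Hsd11b2 was lower in males there too, by 0.03. Saline at day 5 was the other exception for Aqp3, at 0.33, and for Aqp4, at 0.11, and it contains rat 1F106.

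**Figure D3:**
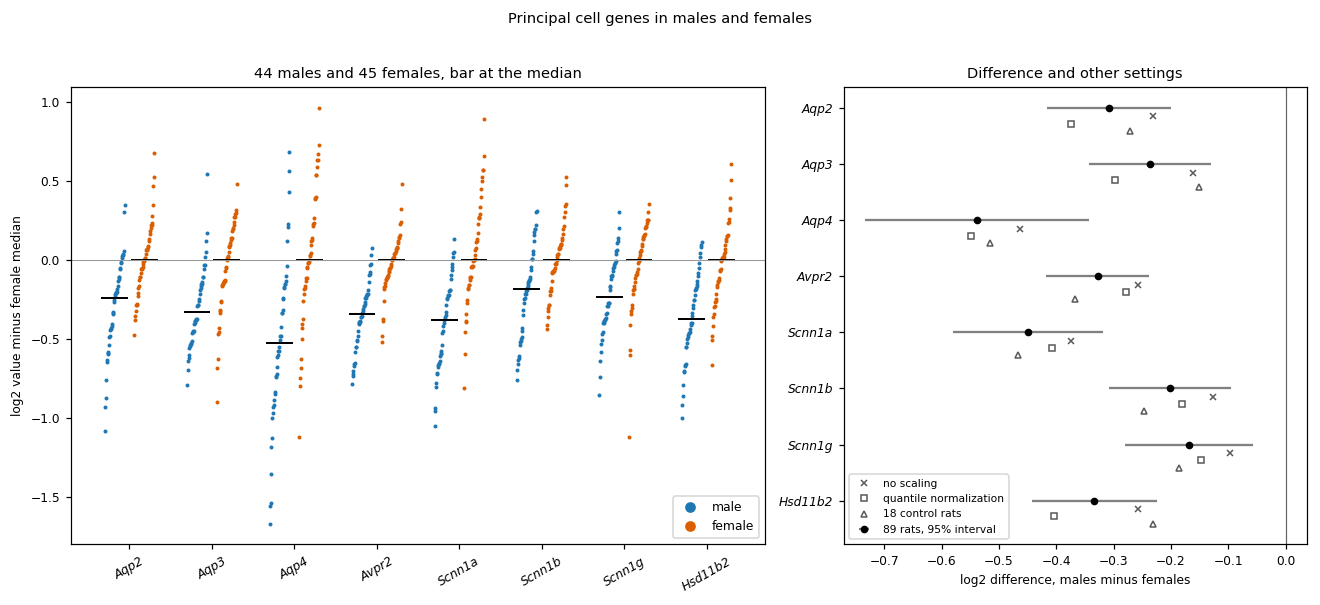
Left, log2 value minus the female median (vertical axis) of each gene in 44 males (blue) and 45 females (orange), sorted within a sex, with bars at medians. Right, male minus female difference (horizontal axis, log2) with its 95% interval over 89 rats, and the same difference under 3 other settings; every marker lies below 0.

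The male deficit kept its sign under every alternative run and lost calls under 2 of them. Without scaling 5 of the 8 genes passed, with Aqp3 at -0.16 (adjusted p 0.177), Scnn1b at -0.13 (adjusted p 0.259) and Scnn1g at -0.10 (adjusted p 0.459) no longer called, and the calls over all genes were then 1709 lower and 2252 higher in males, against 4610 lower and 2727 higher after scaling. In the 18 saline and naive rats alone, 3 of 8 passed, Aqp2 at -0.27, Avpr2 at -0.37 and Scnn1a at -0.47, where 1579 of 11420 genes were called lower and 1121 higher. The other 5 had Aqp4 at -0.51 (adjusted p 0.0804), Scnn1b at -0.25 (adjusted p 0.139), Hsd11b2 at -0.23 (adjusted p 0.116), Scnn1g at -0.19 (adjusted p 0.417) and Aqp3 at -0.15 (adjusted p 0.342) in these fewer rats. Other probe sets of a gene did not always follow: Aqp4 1368981_at gave -0.49 and Scnn1a 1368203_at gave -0.25 (adjusted p 0.0396), while Avpr2 1371265_at gave -0.11 (adjusted p 0.0569), Scnn1g 1387986_at gave 0.03 and Aqp4 1387397_at gave 0.02. The Avpr2 probe set and the last Aqp4 one lay below the limit in 60 and 80 of 89 rats, but the second Scnn1g probe set lay above it in all of them.

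Genes around the channels were called lower in males in part, against 40.4% of all genes. Some genes stand in more than 1 list, such as Fxyd4, Slc14a2 and Aqp1. Examples from the lists were picked with their values in view. Of the 11 other principal cell markers 9 were lower in males, among them Slc14a2, a urea transporter of the inner medullary collecting duct, by 0.70, Fxyd4, a sodium pump regulator, by 0.53 and Cldn4, a tight junction claudin, by 0.44 log2 units. Without scaling 7 of the 11 passed. Of the 16 genes of vasopressin and cAMP signalling 8 were lower and 0 higher, a share near that of all genes, led by Akap7, an anchoring protein of protein kinase A, by 1.48, with the adenylyl cyclases Adcy6 by 0.31 and Adcy3 by 0.27. Of the 15 genes of aldosterone action 7 were lower, again near that share, such as the receptor Nr3c2 by 0.23 and the ligase Nedd4l by 0.15, and 2 were higher, the deubiquitinase Usp2 by 0.57 and the protease Furin by 0.16. Sgk1, the aldosterone-induced kinase, had -0.10 and an adjusted p of 0.479.

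Water channels of other kidney cells went the other way. All 4 measured aquaporins of the list of others were higher in males: Aqp8 by 0.57, Aqp1, the proximal tubule and thin limb channel, by 0.42, Aqp7 by 0.40 and Aqp11 by 0.21 log2 units, and all 4 also passed without scaling. Their summed signal ran from 4988 through a median of 5989 to 7301 in males, against 3443 through 4544 to 5530.0 in females. The sum over the 8 principal cell genes ran from 4872 through 7332 to 10309.6 in males and from 6413 through 8971 to 11992 in females.

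Markers of other cell types and of position in the kidney were counted the same way, beside the 40.4% of all genes called lower in males. Lower in males were 5 of 5 genes of the osmotic response and inner medulla (Akr1b1, aldose reductase, by 0.99, and Nfat5, the tonicity-response factor, by 0.48), 6 of 8 intercalated cell markers, 3 of 8 markers of thick limb and distal convoluted tubule, 4 of 4 podocyte markers, 6 of 6 endothelial markers, 2 of 4 leukocyte markers, 4 of 10 tubular injury genes and 4 of 4 adipocyte markers. Without scaling these counts were 5 of 5, 3 of 8, 0 of 8, 4 of 4, 2 of 6, 2 of 5, 3 of 10 and 4 of 4, where 1709 of 11645 genes were called lower. The counts for thick limb and distal tubule, leukocytes and tubular injury lay near the share of all genes after scaling. Of 10 proximal tubule markers 4 were higher and 1 lower in males with and without scaling. Slc22a6, an organic anion transporter, was higher by 0.95, and Cubn, an endocytic receptor, was lower by 0.83 log2 units.

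The summed signal of the medullary genes had a median of 6386 in males (4451 to 9496), against 9849 in females (6745 to 14283). That of the intercalated markers had 9585 (7533 to 11352) in males and 11376 (8665 to 13494) in females. Adipocyte markers summed to 343 (158.5 to 1324) in males and 779 (289 to 2809) in females, and endothelial markers to 3908 (2853 to 4480.0) and 4484 (3877 to 6703) in males and females. Only genes above the limit on at least 5 arrays entered these lists, so the sums leave out any marker that failed that filter. The GAPDH 3′ to 5′ ratio had a median of 0.34 log2 units in males (0.20 to 0.59) and 0.39 in females (0.15 to 1.58). All 4 arrays with a ratio above 1 were of females, so the sexes were not matched on this measure. The beta-actin ratio had 1.68 in males (1.26 to 2.48) and 1.91 in females (1.36 to 3.40). With either ratio as a covariate 8 of the 8 genes passed. With the beta-actin ratio, Aqp2 had -0.22, against -0.31 without it, Hsd11b2 had -0.24, against -0.33, and Scnn1b had -0.15, against -0.20, while Avpr2 had -0.38, against -0.33, and Scnn1g had -0.23, against -0.17. The part of these markers in the lower levels of males was not tested.

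Whether a compound acted differently in males and females was tested as an interaction, a comparison added after the data were seen. Of 96 such differences of the 8 genes, 0 passed, and 8 had an unadjusted p under 0.05: 1 for doxorubicin at day 1, 3 for tobramycin, 2 for cisplatin and 2 for valproic acid at day 5. The share of all genes called was 0% for gentamicin, tobramycin, cisplatin, cadmium and valproic acid at day 1, 0.0438% for doxorubicin at day 1, 0% for gentamicin, tobramycin, cisplatin, cadmium and doxorubicin at day 5, and 0.00876% for valproic acid at day 5. Where 0 genes were called, between 262 and 1989 had an unadjusted p under 0.05. At day 5 these values rest on 2 saline females, 1F105 and 1F106. Without 1F105, which left the single female with the high GAPDH ratio, Aqp3 passed for tobramycin (-1.27, adjusted p 0.00883), cisplatin (-1.33, adjusted p 0.00923) and valproic acid (-1.27, adjusted p 0.0198), and Avpr2 passed for tobramycin (-0.79, adjusted p 0.0469). The arm then holds 1 female, whose spread is assumed to be that of the other groups. Calls over all genes moved with that rat too: without it 1433 of 11420 genes were called for gentamicin, 992 for tobramycin, 667 for cisplatin, 5 for cadmium, 194 for doxorubicin and 314 for valproic acid at day 5, against 0 or 1 with it, so the member calls stand among many others.

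Between rats of the same group and sex most pairs of the 8 genes rose and fell together. After group and sex were taken out, Pearson's r was above 0 for all 28 pairs, from 0.089 to 0.766 with a median of 0.458, and 22 pairs passed a permutation test within groups (100000 resamples, Benjamini-Hochberg over the 28 pairs). All rats share the scaling and the array platform, so a common shift of an array would add to every pair. Pairs of genes outside the set were not tested, so the count of 22 has no background share beside it. With the GAPDH ratio as a further term the median r was 0.509, and without the 12 brightest arrays it was 0.462.

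Scnn1b and Hsd11b2 were the closest pair, with r 0.766 and rho 0.747 over 89 rats (permutation p 1e-05, the smallest that the resamples can give, and adjusted p 3.11e-05). Without the 2 rats farthest from the median of Scnn1b, r was 0.741, and it was 0.797 in males and 0.721 in females. In the pairs below, the 2 farthest rats were likewise chosen by 1 gene only. That was the gene named first, or Aqp4 in its pair with Avpr2, so rats extreme in the other gene could remain. The receptor Avpr2 followed Aqp4 (r 0.610, rho 0.594, permutation p 1e-05, and r 0.595 without the 2 farthest rats). Aqp3 and Aqp4, both basolateral, had r 0.601 and rho 0.623 (0.5997 without the 2 farthest rats), and Aqp2 and Aqp4 had r 0.582 and rho 0.605 (0.566 without them), each at a permutation p of 1e-05. Scnn1a and Scnn1b had r 0.603 and rho 0.594 (0.595 without them, permutation p 1e-05).

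The pairs that did not pass linked a water channel or the receptor with a sodium channel subunit or Hsd11b2. These were Aqp2 with Scnn1g (r 0.115, permutation p 0.360), Aqp3 with Scnn1b (r 0.131, permutation p 0.254), Aqp3 with Hsd11b2 (r 0.089, permutation p 0.452), Aqp4 with Scnn1b (r 0.128, permutation p 0.270), Aqp4 with Hsd11b2 (r 0.144, permutation p 0.226) and Avpr2 with Hsd11b2 (r 0.224, permutation p 0.0760). Most pairs of this kind did pass, so the 2 kinds of gene did not vary apart. Among them were Avpr2 with Scnn1g (r 0.568), Avpr2 with Scnn1a (r 0.503) and Aqp2 with Hsd11b2 (r 0.490). Scnn1g and Hsd11b2 passed over all rats (r 0.333, rho 0.417, adjusted p 0.00668), with r 0.675 in males and 0.013 in females, a difference that was not tested. Aqp2 with Scnn1g had r 0.404 in males and -0.179 in females, also not tested. RNA integrity moved in opposite directions with the genes: the GAPDH ratio had r 0.513 with Hsd11b2, 0.421 with Aqp2 and 0.339 with Scnn1b, and -0.356 with Scnn1g, -0.283 with Aqp3 and -0.273 with Avpr2. By r, 7 of the 8 genes passed the permutation test after adjustment over the 8, and by rho 3 passed (Hsd11b2, Aqp2 and Scnn1b). With the GAPDH term the pair Scnn1g and Hsd11b2 had r 0.643 and Aqp2 and Scnn1g had r 0.313. Under that term Avpr2 with Hsd11b2 had r 0.441, Aqp3 with Hsd11b2 0.284 and Aqp3 with Scnn1b 0.252. Aqp4 had r 0.230 with Hsd11b2 and 0.173 with Scnn1b, and none of these r values was tested.

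**Figure D4:**
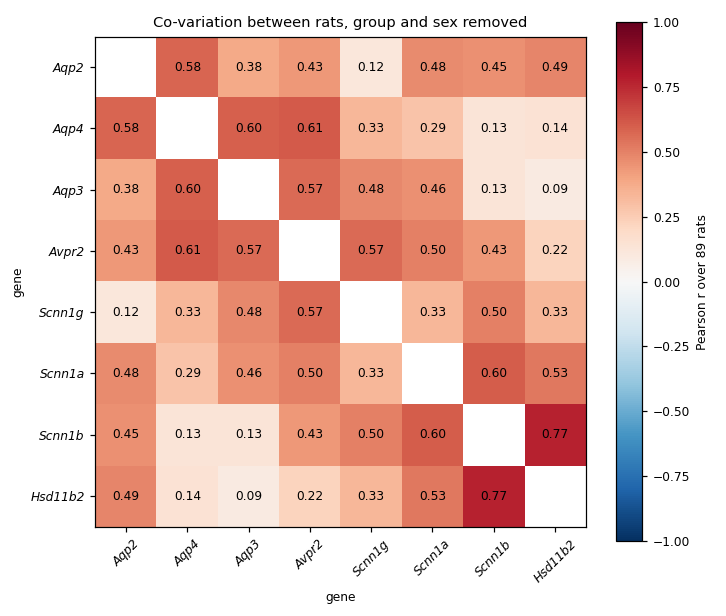
Pearson's r between each pair of the 8 genes over 89 rats, after group and sex were taken out (both axes list the genes, colour gives r). All 28 values are above 0, from 0.089 for Aqp3 with Hsd11b2 to 0.766 for Scnn1b with Hsd11b2.

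Genes whose levels were most like those of a member over the 89 rats, with sex alone taken out, were looked for among 11419 others and are given as a description. Aqp2 had Proser2 (r 0.778), S100a11 (0.776) and Tpd52l1 (0.761), and Aqp4 had Tmem45b (0.793), Fxyd4 (0.793) and Tpd52l1 (0.792). Aqp3 had Slc14a2 (0.671), Rtn4 (0.658) and Mal (0.630), the last a membrane raft protein, and Avpr2 had L1cam (0.670), Mal (0.667) and Niban2 (0.659). Scnn1a had Myo1c (0.716), Mknk2 (0.706) and Gas2l1 (0.694). For Scnn1b the list was Hsd11b2 (0.755), Plxnb1 (0.715) and Slc12a3 (0.704), the thiazide-sensitive cotransporter of the distal convoluted tubule. Scnn1g had Pfn2 (0.657), Klhl5 (0.630) and Zc3h7b (0.621), and Hsd11b2 had Inpp5j (0.778), Casr (0.777) and Slc6a17 (0.773). All these r values share the same 89 arrays and their scaling. Of the 8 genes, Hsd11b2 had the most such partners with r above 0.5, at 509, and Aqp3 the fewest, at 66.

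The closest partners of each gene were set beside the list of other principal cell markers. All 8 genes were present in every group, with 0 of 89 rats below the limit of 33.1 for the probe set used. Fxyd4 and Slc14a2, partners of Aqp4 and Aqp3, were on that list, and the other partners named above were not. In a mixed tissue these values do not show which cells made the RNA. Partners of Scnn1b and Hsd11b2 included Slc12a3 and Casr, genes of the distal convoluted tubule and thick limb, and as background, both members are also made in distal segments upstream of the collecting duct.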

How the data were processed

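The series holds 89 Affymetrix arrays of rat kidney, 1 per rat. The authors deposited 1 intensity per probe set and array, made with MAS5 per the submitters' processing notes, whose version is not given in the sources used here. Arrays were scaled to a common 2% trimmed mean of 180.9 (before scaling 91.5 to 352), and log2(intensity + 16) was tested, which understates changes of low genes. Of the probe sets, 57 controls, 436 with several symbols and 9780 with no symbol were left out, which left 20826. Genes needed a scaled signal above 33.1 (the 40th percentile) on at least 5 arrays, and the probe set with the highest mean stood for a gene. limma 3.58.1 (R 4.3.3, package data.table, version 1.17.8, trend and robust eBayes) was fitted to all 89 arrays with group and sex as terms, and p-values were adjusted by Benjamini-Hochberg over 11420 genes. Pairs of genes were tested with 100000 two-sided permutations in Python 3.11.15, and figures were drawn with matplotlib 3.10.9. The scripts were tested on simulated data.

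The number of arrays limits the precision, and the p-values measure the spread between single rats. All 8 genes are named with all their probe sets. Of the further lists, genes that passed in a treatment comparison may be named, at most 3 a list and comparison, those with the smallest adjusted p, and for each member the 3 genes most alike by r. List genes named in the comparison of the sexes did not follow this rule and were picked with their values in view. The members and lists were chosen with earlier results of these data known. Alternatives changed the scaling, the pseudocount, the filter, the probe sets, the array weights, RNA quality, the eBayes settings, the controls and the rats included, and 0 columns of samples were left unmapped.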

Additional observations from a re-analysis of the deposited data

Results flagged for a closer look

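In 4 of 120 gene and group combinations 1 rat lay far from the rest of its group, where chance gives about 1 in 20, or 6. Aqp3 was 839.9 in the female saline rat 1F106 at day 5, and the other 4 rats had between 1409 and 1532. Scnn1a was 112.9 in the naive male 8M82. Hsd11b2 was 1388 in the male 3M20 given cisplatin for 1 day, and 1158 in the male 2M14 given gentamicin for 5 days.

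In 11 of 96 gene and comparison cases every male moved one way against saline rats of its sex and every female the other way. No such count was made over all genes. Each case is given as the effect in males minus the effect in females, and none passed limma's interaction test. With doxorubicin it was 0.4651 for Avpr2 at day 1, and 0.5493 for Aqp2 and 0.4281 for Hsd11b2 at day 5. With tobramycin at day 5 it was -1.165 for Aqp4 and -0.5111 for Avpr2. With cisplatin at day 5 it was -0.9018 for Aqp3, -0.5196 for Avpr2 and -0.4606 for Scnn1a. With valproic acid at day 5 it was -0.8464 for Aqp3, -1.106 for Aqp4 and -0.3847 for Avpr2. The day 5 values share 2 saline females, 1 of them 1F106.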

How the results depend on the processing

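In the comparisons of treatment, day, saline with naive and gentamicin with tobramycin, 0 of the 8 genes passed under every alternative and with each of the 89 rats left out. All 8 were lower in males under every alternative, and 8 passed except without scaling (5) and in the 18 control rats alone (3). The interaction with sex depended on 1 rat: over the rats left out in turn, 0 to 2 members passed for tobramycin, 0 to 1 for cisplatin and 0 to 1 for valproic acid at day 5, the highest counts without 1F105, where 992, 667 and 314 genes were called in all (1433 for gentamicin, 194 for doxorubicin), against 0 or 1 with that rat. Counts over all genes moved more. They were 14 (0 to 38 over the alternatives) for gentamicin, 59 (1 to 69) for tobramycin, 6 (0 to 14) for cadmium, 6 (5 to 22) for doxorubicin and 26 (2 to 51) for valproic acid at day 1. At day 5 they were 2 (0 to 6) for gentamicin, 0 (0 to 25) for tobramycin, 47 (1 to 161) for cisplatin, 7 (0 to 86) for cadmium, 43 (5 to 152) for doxorubicin and 17 (0 to 134) for valproic acid. For sex the count was 7337 (2700 to 9603). The cause was not tested. Without scaling, the median of all genes moved to between -0.30 and 0.34 in comparisons of compounds. Leaving out the 12 brightest arrays, the control rats alone, median scaling and the actin ratio were chosen after seeing the data. No paired analysis was possible because no animal number is shared between groups, and every array is a different rat.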
